A study of Mus musculus with 18 samples.

Results

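The cells described here are a small set of myeloid cells from mouse dorsal dermis that carry messages of Ear2, Lyz1 and Fn1 together with MHC class II genes. They were chosen by unique molecular identifiers (UMIs), each of which stands for 1 captured transcript. A barcode was a member when it had 850 to 7800 genes detected and under 13% mitochondrial UMIs, with at least 1 Ear2, 2 Lyz1 and 2 H2-Aa UMIs, at most 2 C1qa UMIs and none of Ly6c2 or Pdgfra. Of 23990 barcodes in 18 libraries, 16877 passed the limits on genes and mitochondrial UMIs, and 178 were members. These 178 cells made up 1.05% of the cells that passed, and they came from all 18 libraries with 1 to 20 cells in each (median 9.5).

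The libraries came from wild-type male C57BL/6J mice, young adults with resting (telogen) hair follicles, kept in alternating 12:12 light and dark. Skin was taken at zeitgeber time (ZT, hours after lights on) 2, 6, 10, 14, 18 and 22, with 3 mice and so 3 libraries at each time, numbered as replicates by the day of collection. No mouse was treated and none carried a mutation, so time of day is the single condition that differs. The tissue was digested with warm collagenase, live cells were sorted by a viability dye with no antibody gate, and 3′ single-cell libraries were made. Total UMIs ran from 4850221 to 40827442 per library, and the summed UMIs of the members from 33447 to 374163.

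The dermis holds several kinds of mononuclear phagocyte. Monocytes enter from the blood with the help of the chemokine receptor Ccr2 and carry Ly6c2. Resident macrophages make the complement chains C1qa, C1qb and C1qc, and conventional dendritic cells depend on the growth factor receptor Flt3. Ear2 belongs to the eosinophil-associated ribonucleases of the RNase A family, Lyz1 is a lysozyme that cleaves bacterial cell walls, and Fn1 is the matrix protein fibronectin. Small macrophages of the serous cavities are known for MHC class II, Ccr2, Retnla and Cd226, and Ear2 is also known from lung macrophages and blood monocytes.

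The 3 genes that name the set are protein-coding genes in the GRCm38 (mm10) build with GENCODE M21 annotation. Ear2 (ENSMUSG00000072596) is at chr14:44102654-44103534 on the plus strand. Lyz1 (ENSMUSG00000069515) is at chr10:117287797-117292868 on the minus strand, and Fn1 (ENSMUSG00000026193), which the rule did not use, is at chr1:71585520-71653200 on the minus strand. Ear2 has near-identical relatives, and 29.9% of the 60-base words in the last 500 bases of its transcript also occur in another Ear gene. In all barcodes together Ear1 had 2 UMIs and Ear10 had 1, against 7214 for Ear2. Reads that fit several of these genes cannot be told apart in the counts, and their part was not tested. Lyz1 and its neighbour Lyz2 shared 11.8% of such words.

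Members were set beside 3 classes of cells cut from the same filtered barcodes, all without Pdgfra UMIs. The monocyte gate asked for at least 2 Ly6c2 and 1 Ccr2 UMIs and at most 2 of C1qa (179 cells). The macrophage gate asked for at least 5 C1qa UMIs and no Ly6c2 (1823 cells). The dendritic gate asked for at least 1 Flt3 and 2 H2-Aa UMIs, at most 2 of C1qa, and no Ly6c2 or Ear2 (132 cells). A leukocyte gate, at least 10 UMIs summed over 8 general leukocyte genes, held 3161 cells and 176 of the 178 members. Median UMIs per cell were 17009 in the members, 12856 in the monocyte gate, 12144 in the macrophage gate and 15730.5 in the dendritic gate. UMIs of each class were summed per library and given as CPM, the UMIs of a gene per 1000000 UMIs of that sum, in libraries with at least 5 cells of the class. The members had 14 such libraries, the macrophage gate 18, the dendritic gate 15 and the monocyte gate 7. Since each class was cut by its counts, the differences in level between classes are descriptions and carry no test.

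Libraries were checked for shared cell barcodes before the results were drawn. In all, 164 barcode sequences occurred in more than 1 library, and 89 of them joined ZT10 replicate 3 to ZT6 replicate 2. All 89 passed the limits in ZT10 replicate 3, with a median of 30446 UMIs, and none passed in ZT6 replicate 2, where their median was 553. In all 4 members had a barcode that occurred in another library, and no pair of members shared one. Without both libraries 169 members remained, at 5.54% of the leukocyte gate.

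Of the 6 markers of the set, Ear2, Lyz1, Fn1 and Dcstamp had means at least 2-fold above those of the other 3 classes, while Itgax and H2-Aa were shared with the dendritic gate. Lyz1 and Ear2 were in the rule, so their levels only describe it. The lysozyme gene Lyz1 reached 1454 CPM in its lowest library, 4880 in its median library and 6967 in its highest. In the macrophage gate the highest library had 665 CPM of Lyz1, and in the dendritic gate 57.3. Ear2 ran from 359 through a median of 881 to 1213 CPM in members, with at most 347 CPM in any macrophage library and none in the dendritic gate, which excluded it. Neither gene's libraries overlapped between the members and any of the other classes.

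Fn1 was not in the rule. Its level in the members had a lowest library of 1437, a median of 2999 and a highest of 5420 CPM. The highest libraries of the other classes had 814 CPM (monocyte gate), 731 (macrophage gate) and 392 (dendritic gate), so the members stood above all of them without overlap. Fibroblasts, which secrete fibronectin, had a mean of 5369 CPM, and cell-free fibroblast RNA could reach other barcodes. Col3a1, a collagen that fibroblasts make, stood at 23679 CPM in fibroblasts and at 92.7 CPM in the members. The macrophage gate had 170.5 CPM of Col3a1 and 151 of Fn1. The part of cell-free RNA in the members' Fn1 was not tested.

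Dcstamp, a membrane protein needed for the fusion of osteoclasts and giant cells, had the largest ratio to the next class among the set's markers outside the rule, 15.7-fold on the CPM + 1 scale. Its lowest, median and highest libraries among the members were at 132, 271 and 443 CPM, and the class with the next highest mean, the dendritic gate, averaged 15.8 CPM. A single dendritic library, ZT10 replicate 2 at 138 CPM, lay within the members' range. The dendritic mean came mainly from it and from ZT2 replicate 1 (82.6 CPM), so the ratio depends on these libraries. At the level of cells, 108 of the 178 members (60.7%) had a Dcstamp UMI. Members held 62.1% of all Dcstamp UMIs in the leukocyte gate and the 2 members outside it together, and by comparison 45.8% of the Ear2, 67.7% of the Lyz1 and 50.7% of the Fn1 UMIs there.

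Itgax and H2-Aa separated the members less. Itgax, the integrin chain CD11c that is widely used to mark dendritic cells, had a median of 77.5 CPM in the members (range 29.2 to 127), and its highest dendritic library was at 179 CPM. Members were above the dendritic gate in 8 of 12 libraries and above the macrophage gate in 14 of 14. H2-Aa, an MHC class II chain in the rule, had a median of 8613 CPM in members, and all 12 libraries compared had more in the dendritic gate.

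**Figure D1:**
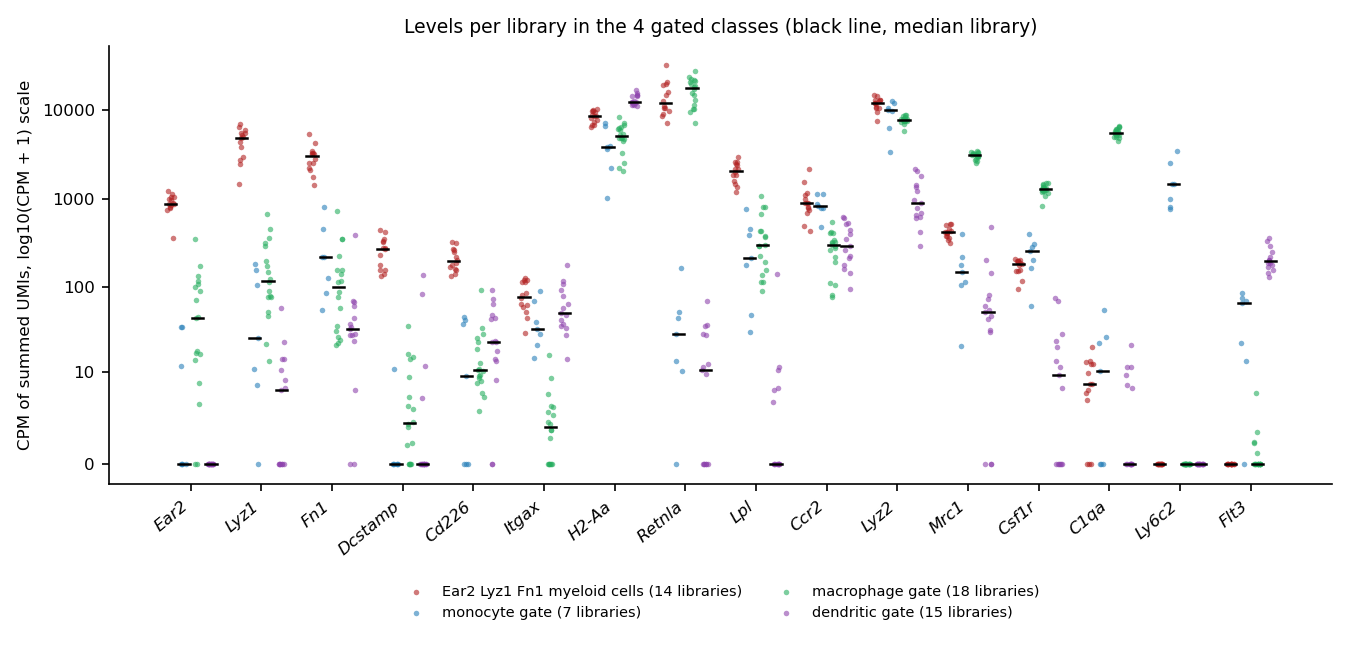
Level of 16 genes in the 4 gated classes, in CPM of summed UMIs on a log10(CPM + 1) axis. Each point is a library with at least 5 cells of the class and each black line is the median library. Ear2, Lyz1 and Fn1 stand apart in the members (medians of 881, 4880 and 2999 CPM), Retnla is high in members and macrophages, and Flt3, Ly6c2 and nearly all C1qa are missing from the members.

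Genes used to cut the other classes were shared in part. Ccr2 and H2-Aa were high in the members, C1qa and Ly6c2 were limited by the rule, and Flt3, which the rule did not name, had no UMI. None of 178 members with a Flt3 UMI allows a share of up to 1.69% of cells with a captured UMI, from counting error alone, and does not limit cells that express the gene. The dendritic gate itself averaged 213 CPM of Flt3. Csf1r, the receptor for the macrophage growth factor, had a mean of 172 CPM in members against 1280 in the macrophage gate and 17.2 in the dendritic gate. Members were below the macrophage gate in 14 of 14 libraries and above the dendritic gate in 12 of 12.

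Of the 12 macrophage markers, 11 had at least 1 UMI in the members and 6 reached 50 CPM, and Lyve1 had none. Their summed level was 1668 CPM in the members (lowest library 1366, median 1706, highest 1914), 24197 in the macrophage gate, 1526 in the monocyte gate and 383 in the dendritic gate. C1qa is in this list, so the limits on it in the rule and in each of the gates fixed part of these differences. F13a1, the coagulation factor XIII subunit, was the most abundant of them in members at 588 CPM, and the mannose receptor Mrc1 followed at 419 CPM against 3081 in macrophages. None of the 12 was at least 2-fold above or below all other classes. Over the 6 with at least 50 CPM, the median log2 ratio to the highest other class was -2.56, against -0.28 over all 2417 genes with at least 50 CPM in members. Folr2, Timd4 and Mertk stood at 2.4, 1.4 and 3.9 CPM.

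Classical monocyte markers summed to 1001 CPM in members and 5057 in the monocyte gate, and Ccr2 supplied 971 of the members' sum. Ccr2 was the one marker of the 8 above 50 CPM, and its libraries (429 to 2189 CPM) overlapped those of the monocyte gate (477 to 1138). Plac8 was at 11.4 CPM in members and 1921 in the monocyte gate, and Chil3 and Ly6c2 had no UMI, the latter by the rule. The monocyte gate also carried lymphocyte messages, with Nkg7 at 295 and Gzma at 242 CPM, so it is not a pure monocyte class. Nkg7, Gzma and the 7 T cell markers had no UMI in the members. Nonclassical monocyte markers summed to 456 CPM in the members, 416 of which was Nr4a1, and the defining Cd300e was at 0.

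Dendritic cell lists gave the same picture of partial presence. The 6 pan-dendritic markers summed to 113 CPM in the members and 609 in the dendritic gate, with Itgax the most abundant and Zbtb46 at 3.5 CPM. In the list of type 1 dendritic cells no gene reached 50 CPM, and Irf8, the transcription factor of that lineage, was at 12.7 CPM against 128 in the lowest other class. Among the 7 type 2 markers, 5 reached 50 CPM, led by Irf4 at 194 CPM, Sirpa at 180 and Cd209a at 176, while Cd7 and Epcam had no UMI. That list summed to 801 CPM in the members, 719 in the monocyte gate, 1496 in the dendritic gate and 3134 in the macrophage gate. Migratory dendritic markers were low, with Fscn1, Il4i1 and Cacnb3 at 0 and Ccr7 at a mean of 34.1 CPM, with 367 in its highest library and none in the median one.

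Ear2 takes its name from eosinophils, and the eosinophil list was nearly empty. Ccr3, Epx, Il5ra and Prg2 had no UMI, and the whole list of 6 summed to 4.1 CPM. Alveolar macrophage markers summed to 69.0 CPM, of which the lipid-sensing receptor Pparg gave 66.4, while Car4, Ear1, Fabp1, Krt79 and Marco were at 0 and Siglecf was at 2.4 CPM. Neutrophil, mast cell, B cell, keratinocyte and endothelial lists each summed to at most 11.2 CPM in the members. Cycling markers summed to 149 CPM, and 8.4% of the members had a Mki67 UMI.

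All 6 genes of the list for small serous cavity macrophages were above 50 CPM in the members. Retnla, a secreted resistin-like protein of alternatively activated macrophages, had a lowest library of 7247, a median of 12046 and a highest of 32070 CPM. That range overlapped the macrophage gate (7227 to 27603 CPM), and the highest library of the other classes was at 162 CPM. Fcrls, an Fc receptor-like scavenger molecule, averaged 1011 CPM in members and 450 in macrophages, with members above in 14 of 14 libraries. Cd226, the adhesion receptor DNAM-1, ran from 134 through 195 to 321 CPM, above every library of the other classes, whose highest was 92.4. The C-type lectin gene Clec4b1 averaged 387 CPM in members and 207 in the dendritic gate. Since these genes were listed with earlier results of the same libraries known, their levels do not independently support a name for the set.

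Retnla stood near its macrophage level in the members while other macrophage genes were low. Apoe, the most abundant of the macrophage lipid genes, averaged 17335 CPM in the macrophage gate and 51.1 in the members, and the chemokine Ccl8 averaged 5512 and 2.8. For Retnla members were above the macrophage gate in 2 of 14 libraries.

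Among 2417 genes with at least 50 CPM in the members, 75 (3.1%) had a mean at least 2-fold above the highest of the other classes. For 31 of these (1.28%) members were also higher in every library compared. Libraries with at least 5 cells of both classes numbered 14 for the macrophage gate, 12 for the dendritic gate and 5 for the monocyte gate. The genes named next are the 15 with the largest ratio among those higher in every library compared, outside the rule and the set's own markers. They included the actin-bundling protein Espn at 52.2 CPM (4.8 in the next class), the surface proteoglycan Sdc1 at 76.4 CPM (7.6) and Aldh1a2, an enzyme that makes retinoic acid, at 80.2 CPM (8.3). Hr, the hairless corepressor, had 87.6 CPM and a next class of 10.1.

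Of the 15, Cd226 was 6.32-fold above the next class on the CPM + 1 scale, and the adaptor Socs6 4.92-fold at 230 CPM. Slamf8, a SLAM family receptor of phagocytes, had 116 CPM, the small GTPase Rras2 had 103 and the potassium channel Kcnn4 had 112, all between 3.51-fold and 4.72-fold above the next class. Plxnd1, a semaphorin receptor, had 328 CPM, 3.44-fold above the next class. Phlda1 (286 CPM), Prelid2 (56.7 CPM) and the pyrimidine-degrading enzyme Upb1 (124 CPM) were also among them.

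Lpl and Id2 were the most abundant of the 15. Lpl encodes lipoprotein lipase, which releases fatty acids from lipoproteins, and its libraries ran from 1181 through 2072 to 2982 CPM, with no overlap with the macrophage gate, whose highest was 1086. Id2, an inhibitor of basic helix-loop-helix factors that dendritic and innate lymphoid cells need, had a mean of 1051 CPM and 308 in the monocyte gate. Its members' libraries (658 to 1621 CPM) overlapped those of the dendritic gate, where 1 library reached 983.

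Fewer genes were low in the members alone. Of 1688 genes with at least 50 CPM in each of the other classes, 13 (0.77%) were at least 2-fold below all 3 and lower in every library compared. Gpr183, a receptor that guides cells by oxysterols, was at 3.6 CPM in members and at 88.9 in the lowest other class. Its UMIs lay in 2 of the 14 libraries, and the log2 ratio of -4.29 became -5.05 without ZT22 replicate 2. The prostaglandin receptor gene Ptger4 was at 3.3 and 56.6 CPM. Ms4a6c, a membrane gene of monocytes, had 67.1 CPM against 465. The transcription factors Tcf4 (23.8 against 132 CPM) and Mef2c (40.6 against 166) were also in this group, as were Zfp36l1, an RNA-decay factor, at 126 against 462 CPM and Il13ra1, a receptor chain for IL-13, at 14.7 against 69.9. Apobec3, Hmgn1 and Ighm made up the rest of the 10 lowest.

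**Figure D2:**
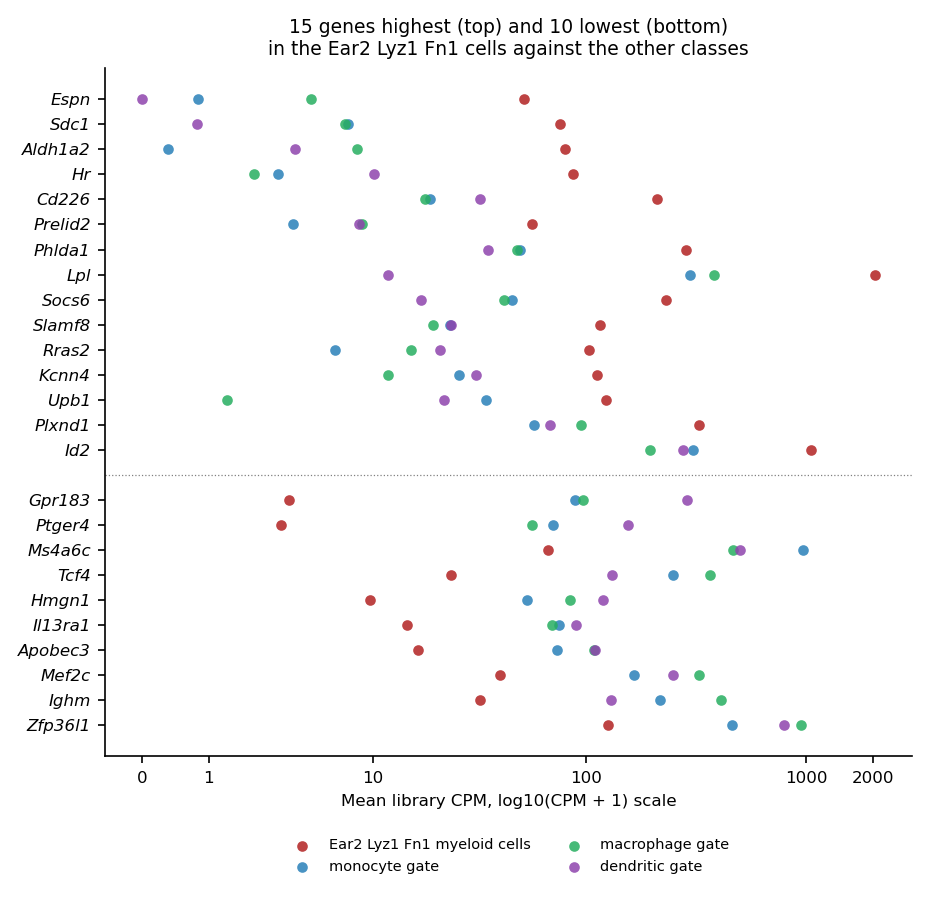
Mean library CPM in the 4 classes, on a log10(CPM + 1) axis, for the 15 genes with the highest ratio of members to the next class among those higher in every library compared (above the dotted line) and the 10 with the lowest among those lower in every library (below it). Members (red) lie to the right of all other classes in the upper block, from 52.2 CPM for Espn to 2047 for Lpl, and to the left in the lower block.

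Function lists placed these genes beside their pathways. Their counts stand beside the 3.1% of genes at least 2-fold above the next class and the 2.43% (41 of 1688) at least 2-fold below all others. These shares are over genes that reached 50 CPM, outside the rule, the set's markers, Ccr2 and Flt3, which some lists hold. In the antigen presentation list 9 of 10 genes passed 50 CPM and none was 2-fold above or below the other classes. Its sum was 45689 CPM in the members, 69213 in the dendritic gate, 24810 in the macrophage gate and 20910 in the monocyte gate. The invariant chain Cd74 was its most abundant gene at 18406 CPM, and H2-DMa, which loads peptides, was above the dendritic gate in 10 of 12 libraries. H2-Oa, which restrains H2-DM, was at 0.5 CPM in the members and 148 in the dendritic gate.

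Among 8 growth factor and cytokine receptors, Csf2ra stood 2.59-fold above the next class at 569 CPM (lowest library 403, highest 747). It encodes the alpha chain of the GM-CSF receptor, and the shared chain Csf2rb had 160 CPM, close to the 157 of the monocyte gate. Transcription factors gave 2 genes of 15, or of the 11 with at least 50 CPM, at least 2-fold above the next class, Id2 and Batf3, and 1 at least 2-fold below all others, Irf8. Batf3, a bZIP factor, had 212 CPM, with 79.1 in the dendritic gate. The macrophage factor Maf was at 31.9 CPM in the members and at 1678 in macrophages, while Zeb2 stood at 988 CPM, between the 968 of the monocyte gate and the 1025 of the macrophage gate.

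Matrix and coagulation genes gave 3 of 13, or of the 7 with at least 50 CPM, at least 2-fold above the next class (background 3.1%). These were the set's own marker Fn1 and the metalloproteinases Mmp19 (288 CPM, range 16.2 to 879) and Mmp12 (52.4 CPM). Mmp12 had a range of 0 to 225 CPM, and its mean lay just above the limit of 50 CPM. In the chemokine list 1 of 14, or of the 9 with at least 50 CPM, was at least 2-fold above the next class, the neutrophil chemokine Cxcl2. It averaged 5399 CPM, from 0 in ZT14 replicate 2 to 12151 in ZT10 replicate 2. Ccl6 (2817 CPM) and Ccl9 (1561 CPM) had UMIs in 100% and 95.5% of the members. Inflammatory cytokines gave Il6, at 115 CPM with a range of 0 to 560, and Il1b averaged 1228 CPM, below the 4583 CPM of the dendritic gate. Il1rn, the antagonist of the IL-1 receptor, averaged 602 CPM in members (range 0 to 1362.5), 91.6 in the monocyte gate and 71.3 in the macrophage gate. A single gene came from each of the lists for fusion (Dcstamp), lipids (Lpl), the RNase A family (Ear2) and lysozymes (Lyz1). None came from the lists for integrins, chemokine receptors, costimulation or alternative activation. Lyz2, the common myeloid lysozyme, had 11840 CPM in members and 7819 in macrophages.

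The limits on Lyz1 and C1qa had cells close by on both sides. Median UMIs per member were 9.5 for Ear2 (1 to 105), 45 for Lyz1 (2 to 720) and 148.5 for H2-Aa (4 to 503). Just inside the Lyz1 limit lay 10 members with 2 UMIs, and just outside lay 17 cells that met the rest of the rule with 1. A further 106 cells met the rest with no Lyz1 UMI at a median of 13527 UMIs per cell. Pooled over these 106 cells, Ear2 was at 768 CPM, Fn1 at 1708, Cd226 at 147 and Dcstamp at 160, beside 894, 2805, 212 and 248 in the pooled members. Retnla was at 4601 CPM in them and 14005 in the members, and Flt3 was at 31.0 and 0.

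At the C1qa limit, 20 members had 1 or 2 UMIs, 9 cells outside had 3 or 4, and 71 cells that met the rest of the rule had 5 or more. Those 71 cells had 2293 CPM of C1qa and belong to the macrophage gate. Their pooled levels were 1060 CPM of Ear2, 3154 of Lyz1, 1659 of Fn1, 177 of Cd226 and 27323 of Retnla. At the Ear2 limit, 12 members had a single UMI and 21 cells that met the rest had none. Those 21 cells were at 939 CPM of Fn1, 54.3 of Cd226 and 3945 of Retnla, at a median of 6347 UMIs per cell. Just 3 cells were left out for Ly6c2 alone and 6 for Pdgfra alone, and no cell lay at the H2-Aa limit.

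Genes of the rule were also counted in 12133 fibroblasts, which should lack them and where free RNA could bring them. Of these cells 0.231% had an Ear2 UMI at a median depth of 22132 UMIs, 0.734% had a Lyz1 UMI and 6.80% an H2-Aa UMI. The part of free RNA in the members' levels of these genes was not tested. In the macrophage gate 5.87% of cells had Ear2 and 14.5% had Lyz1 at a median of 12144 UMIs. When each cell was thinned to 5000 UMIs, leaving out 17 members and 228 macrophages that were shallower, 94.4% of members and 4.76% of macrophages had an Ear2 UMI. The rule asked for an Ear2 UMI in each member, so the members' share largely restates the rule. No member was among the 299 barcodes with the highest doublet scores in their libraries.

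Members were then grouped with the other leukocytes on genes that the rule and the set's markers did not use. Of 16 Leiden clusters, 1 with 216 cells held 109 members (61.2% of them) and another with 128 cells held 61 (34.3%). Of the remaining 8 members, 6 lay in a cluster with 117 cells of the dendritic gate. The others lay in clusters with 55 and 60 cells of the monocyte gate, 1 in each. Members made up 50.5% of the first cluster, and its 107 other cells had pooled levels of 810 CPM for Ear2, 2101 for Fn1 and 157 for Cd226, beside 784, 2325 and 195 in the members in it. They had less Lyz1 (2100 against 4708 CPM) and Dcstamp (202 against 313), and more C1qa (856 against 6.62) and Retnla (18390 against 11568). Lyz1 and C1qa were in the rule that parted them. Of those 107 cells 66 had 3 or more C1qa UMIs, 41 had no Lyz1 UMI and 15 had no Ear2 UMI, with some counted more than once. The clusters depend on the resolution. At a resolution of 2 the 61 members of the second cluster stayed together, and those of the first were divided, 66 into a cluster with 69 members (38.8%) and 41 into a cluster with 41 (23.03%). Il1b was at 264 CPM in the 69 and 3543 in the 41, Cxcl2 at 4512 and 11037, Areg at 38.4 and 511, and Tnf at 87.9 and 103, so the 109 cells described next as the first group are not uniform.

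The 2 groups of members came from clusters that left out only the rule's genes, the set's markers, Ccr2 and Flt3. Other genes compared below could thus shape the split, and their differences and library counts may restate it. No difference between the groups carries a test. Among genes with at least 200 CPM in either group, Il1b had the largest ratio on the CPM + 1 scale. The first group, 109 cells in 17 libraries, had 1741 CPM of Il1b (3945 UMIs), and the second, 61 cells in 14 libraries, had 3.72 CPM (3 UMIs). The ratio of these CPM was 469, with a counting interval of 160 to 2273 that does not cover the spread between libraries. Il1b was higher in the first group in 7 of 8 libraries with at least 3 cells of both groups. Cxcl2 was at 7499 CPM in the first and 34.7 in the second, and Cd83, a surface marker of activated antigen-presenting cells, at 1212 and 9.9 CPM. Without ZT10 replicate 2 the first group had 1508 CPM of Il1b and 6808 of Cxcl2. Without ZT2 replicate 3 the second group had 1.57 CPM of Il1b and 20.4 of Cxcl2. The epidermal growth factor family ligand Areg was at 246 CPM in the first and had no UMI in the second, at least 66.3-fold lower against a floor of 3 UMIs over the group. Tnf had 97.1 CPM in the first and again no UMI in the second, at least 26.1-fold lower. Areg was uneven, with UMIs in 12.9% of the members, and ZT10 replicate 2 held 344 of its UMIs. Without that library the first group had 108 CPM of Areg, and the bound against the same floor was 29.0-fold.

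Higher levels in the first group also held for Il1rn (859 against 45.8 CPM), Ccl2 (1409 against 114 CPM), Mmp19 (419 against 40.9 CPM) and Cd86 (202 against 44.6 CPM), each in 8 of 8 libraries with at least 3 cells of both groups. Dcstamp was at 313 and 116 CPM, higher in the first group in 7 of 8 libraries. Of 749 genes with at least 200 CPM in either group, 156 (20.8%) were at least 2-fold higher in the first group and 22 (2.94%) in the second. Of the chemokine list 7 genes reached that level, and 5 of them (Ccl2, Ccl3, Ccl4, Cxcl1 and Cxcl2) were at least 2-fold higher in the first group. Ccl2 and Cxcl2 were higher there in 8 of 8 libraries, Ccl4 in 6, Cxcl1 in 5 and Ccl3 in 4. Ccl6 was at 2893 CPM in the first and 3156 in the second, and Ccl9 at 1918 and 1281. Of the 7 inflammatory cytokines Il1b alone reached 200 CPM. Below that level Il6 was at 167 CPM in the first group and 1.24 in the second (1 UMI), higher in the first in 7 of 8 libraries, and Il1a at 66.7 CPM in the first (34.2 without ZT10 replicate 2) with no UMI in the second. Il10 was at 17.2 and 1.24 CPM, while Tgfb1 (146 against 152 CPM) and Il18 (34.4 against 23.5 CPM) were near parity or low in both. In the antigen presentation list 1 of 8 genes, Ifi30, was at least 2-fold higher in the first group.

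Retnla was higher in the second group, at 23130 against 11568 CPM, in 8 of 8 libraries. Fn1 was at 4497 and 2325 CPM (7 of 8 libraries), Ccr2 at 1383 and 694 (8 of 8), Batf3 at 312 and 155 (8 of 8) and Ciita, the master regulator of MHC class II, at 159 and 49.9 (8 of 8). Socs6 and Txnip, a thioredoxin-binding protein, were at 445 and 406 CPM in the second group and at 162 and 118 in the first. The genes of the rule differed less. Ear2 was at 1217 CPM in the second group and 784 in the first, Lyz1 at 6208 and 4708, and H2-Aa at 7209 and 8709, and Lpl and Itgax were near parity.

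Depth, mitochondrial share and immediate early genes moved with the split. The first group had a median of 22324 UMIs and 2.87% mitochondrial UMIs, the second 9137 and 6.40%. Immediate early genes, which digestion at body temperature can induce, were higher in the first, with Egr1 at 521 against 24.8 CPM, Atf3 at 1193 against 109, Junb at 3144 against 556 and Jun at 950 against 302, each in 8 of 8 libraries. The heat shock genes Hspa1a and Hspa1b were at 1643 against 808 and 2245 against 1114 CPM, higher in the first group in 6 of 8 libraries. Over all members this list of 7 summed to 9129 CPM, within the 8787 to 11860 CPM of the other classes and fibroblasts. The part of depth, mitochondrial share and these genes in the result was not tested.

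**Figure D3:**
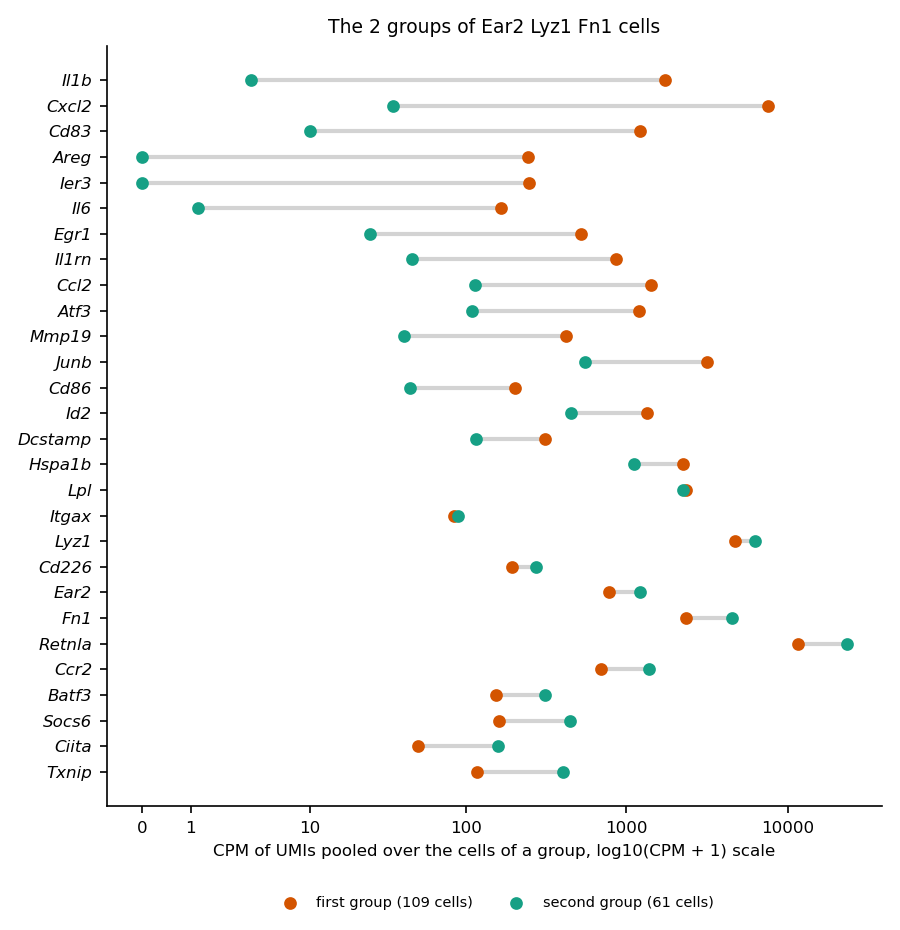
CPM of UMIs pooled over the 109 cells of the first group (orange) and the 61 of the second (green), on a log10(CPM + 1) axis, for 28 genes. Il1b (1741 against 3.72 CPM) and Cxcl2 lie far apart, Lpl and Itgax coincide, and Retnla, Ccr2, Batf3, Socs6, Ciita and Txnip lie to the right in the second group.

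The mix of the groups varied among libraries. In the 13 libraries with at least 5 cells of both groups together, the first made up 27.3% to 100% of them, with a median of 68.8%. ZT10 had 28 cells in the first group and 2 in the second over its 3 libraries, ZT2 had 26 and 22, ZT6 had 8 and 9, and ZT22 had 24 and 11. At ZT14 replicate 2 had 0 and 4 cells and replicate 3 had 11 and 5, and ZT18 summed to 9 and 8. Among the 14 libraries with at least 5 members, Retnla was highest in ZT14 replicate 2 at 32070 CPM, where Il1b and Cxcl2 had no UMI, and lowest in ZT10 replicate 2 at 7247 CPM, where Il1b (3332 CPM) and Cxcl2 (12151 CPM) were highest. ZT14 replicate 1, with 4 members, had less Retnla (2424 CPM) at 424 CPM of Il1b.

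**Figure D4:**
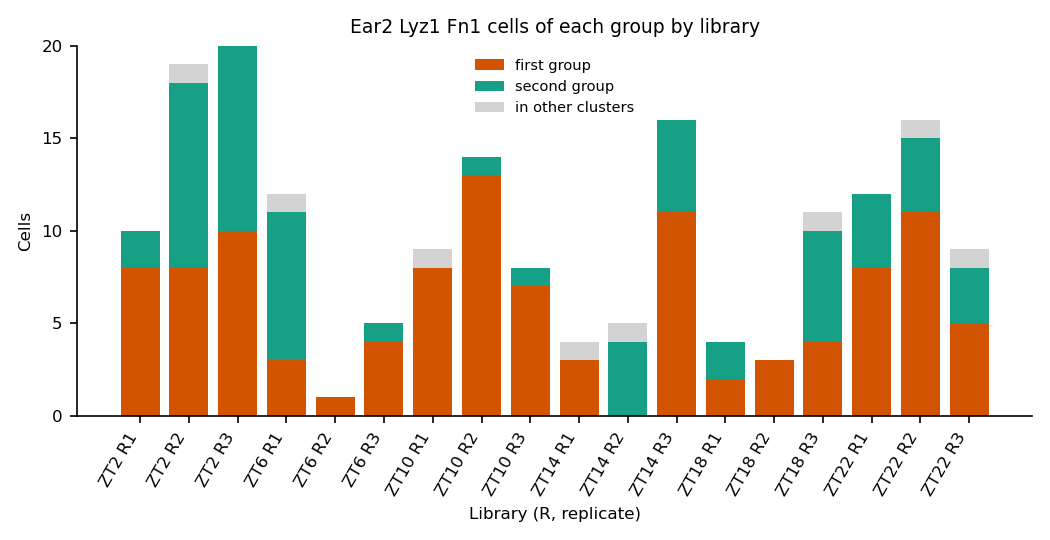
Number of Ear2 Lyz1 Fn1 cells per library, stacked by group (first, second, or in other clusters). Libraries hold 1 to 20 cells, the 3 ZT10 libraries are mostly of the first group (28 of 31 cells), and ZT14 replicate 2 has none of it.

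Members were then compared over the day, which took no part in the rule. Their share of the leukocyte gate had a mean of 6.19% ± 3.26 (SD, n = 18 libraries), with a lowest library of 1.51%, a median of 6.01% and a highest of 13.8%. Pooled, it was 5.57% (exact 95% binomial interval 4.79 to 6.43, counting error only). Counting error alone would give an SD of 2.11 percentage points between libraries. The highest share came from the library with the fewest leukocytes, ZT18 replicate 1, with 4 members of 29 cells.

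By time the share was 6.99% ± 2.63 at ZT2, 4.21% ± 2.92 at ZT6 and 6.88% ± 2.66 at ZT10 (SD, n = 3 libraries each). In the dark it was 3.49% ± 2.33 at ZT14, 8.33% ± 5.03 at ZT18 and 7.23% ± 3.14 at ZT22. All 6 times overlapped in their libraries. A 24 h cosine explained 9.76% of the variance in the share (two-sided permutation test with 100000 draws, p = 0.4629), and differences among the 6 times explained 29.95% (permutation p = 0.4429). The cosine explained 20.6% without ZT10 replicate 3, 16.5% without ZT22 replicate 1 and 5.74% without ZT22 replicate 3. A rhythm in the share was thus not detected.

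**Figure D5:**
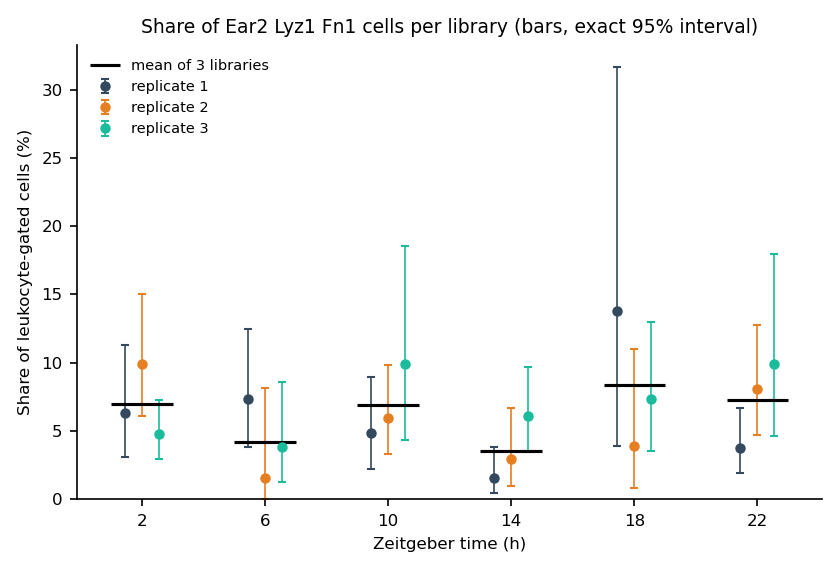
Share of Ear2 Lyz1 Fn1 cells among leukocyte-gated cells (%) against zeitgeber time (h), 1 point per library with its exact 95% binomial interval, coloured by replicate, and the mean of 3 libraries as a black line. Means run from 3.49% at ZT14 to 8.33% at ZT18, and the libraries of the 6 times overlap.

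Expression over the day was tested in sums of the members' UMIs for the 14 libraries with at least 5 members, of which ZT18 has 1. A 24 h rhythm was fitted to 3169 genes with edgeR's quasi-likelihood test. No gene (0%) had an adjusted p under 0.05, and 158 (4.99%) had an unadjusted p under 0.05. With no filter on low counts edgeR called 107 of 13397 genes, of which 54 had passed the filter, among them Cxcl3 (adjusted p = 8.04e-28), Herpud1 (0.013) and Insig1 (0.0332), each at 0.798 with the filter. DESeq2 called 4, namely Cd52, Zc3h12c, Tsc22d3 and Hsph1. In edgeR with the filter the smallest adjusted p was 0.750, shared by Tsc22d3, the glucocorticoid-induced leucine zipper, with a fitted log2 amplitude of 1.21 and a peak at ZT 4.44, by the heat shock gene Hsph1 (1.44, ZT 7.92), by Zc3h12c, by Cd52 and by Yy1.

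Clock genes had few UMIs in the members. Of 12 in the list, 11 had a UMI in the members. Per1 was the one that passed the low-count filter of the main fit, at a mean of 83.0 CPM. Its fitted log2 amplitude was 0.53 with a peak at ZT 8.41 (edgeR adjusted p = 0.993). Pooled over the members of each time, Per1 had 93 UMIs at ZT10 (143 CPM, counting interval 116 to 175) and 10 at ZT18 (35.3 CPM, 16.9 to 64.9). Nr1d1, the clock repressor REV-ERB alpha, had 31, 14 and 24 UMIs at ZT2, ZT6 and ZT10 and 5, 0 and 7 at ZT14, ZT18 and ZT22. Per1 was at 108 CPM in the first group and 17.3 in the second. Nr1d1 was at 33.1 and 3.72 CPM (3 UMIs), the latter 1.50 to 4.71 with 1 library left out. The mix of the groups differed between times, and its part in the values by time was not tested. With no filter on low counts, Nr1d2, a second REV-ERB gene, had an edgeR adjusted p of 0.0298, and the 10 other clock genes had 0.259 or more. These pooled counts are descriptions of 18 to 49 members per time, and their intervals do not cover the spread between mice.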

How the data were processed

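Dermal cells from 18 mice, 1 library each, were sequenced as 3′ single-cell libraries. The authors deposited UMI counts per gene and barcode, made with Cell Ranger 3.1.0 on mm10 per the labels, and these counts were used as deposited. No normalized values of theirs were used. Barcodes were kept with 850 to 7800 genes and under 13% mt- UMIs. Counts of a class were summed per library and divided by their total, and ratios were taken as log2 of CPM + 1. A UMI counts a 3′ end, so CPM is not scaled by gene length. Groups came from zeitgeber times in the labels. The members, gates and gene lists were chosen with earlier results of these data known. Named genes were the genes of the rule, markers of the set, the top members of each list and those at 0, the 15 highest and 10 lowest genes by ratio, clock genes and the 10 smallest rhythm p-values.

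Rhythm was tested with edgeR 4.0.16 (R 4.3.3; cosine and sine of 24 h, TMM, filterByExpr, Benjamini-Hochberg over all genes), with DESeq2 1.42.0 as an alternative, and the share with permutations in SciPy 1.17.1. Both were tested on simulated data. Clusters came from the igraph form of Leiden in scanpy 1.11.5 on 30 components. These were made from 2000 variable genes, less any of the rule's genes, the set's markers, Ccr2 and Flt3. Doublets were not removed. As an alternative, the highest Scrublet scores were removed at 0.8% per 1000 barcodes, 299 in all. Replicate numbers mark the day of collection in the titles. Same-numbered libraries of other times had deviations with a median correlation of -0.028 (22 pairs, -0.193 to 0.28), against -0.002 for other pairs (45). Each library is 1 mouse, and total UMIs of 4850221 to 40827442 and 1 to 20 members per library limit the precision.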

Additional observations from a re-analysis of the deposited data

Results flagged for a closer look

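Outside the filtered barcodes, 65 met every UMI limit of the rule and failed the filter, 17 for fewer than 850 genes and 48 for 13% or more mitochondrial UMIs. They drew attention as signal in barcodes that no comparison used. They came from 16 libraries, with a median of 4023 UMIs and 20.6% mitochondrial UMIs, against 17009 and 3.21% in the members. Pooled, they had 997 CPM of Ear2, 3003 of Lyz1, 2954 of Fn1, 169 of Cd226, 21643 of Retnla, 44.99 of Dcstamp and 71.2 of C1qa. The pooled members had 894, 4867, 2805, 212, 14005, 248 and 8.32 CPM of these genes.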

How the results depend on the processing

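Of 159 alternative values for the main results, 156 kept their direction, their side of the threshold and, for counts, stayed within 1.5 times. The number of members lay between 158 and 178 under other limits, doublet removal, thinning and without both libraries that share barcodes, and between 158 and 177 with 1 library left out in turn. When each barcode was thinned to 5000 UMIs, 142 of 158 members were those of the full counts. Genes at least 2-fold above the other classes and higher in every library compared numbered 29 to 34, or 30 to 36 with 1 library left out, and those below and lower in every library 12 to 13, or 13 to 17. The cosine explained 6.24% to 17.3% of the share over the day, and 5.74% to 20.6% with 1 library left out, beside 9.76%, with p values of 0.2601 to 0.6254 and 0.1969 to 0.6687 with 1 library left out. The share of members in 1 cluster was 38.8% at a resolution of 2. That resolution, the libraries left out for shared barcodes or from the 2 groups of members and, for levels, the other limits of the rule were added once the data had been seen.

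Rhythmic genes numbered 0 in edgeR, 4 with DESeq2 and 107 of 13397 in edgeR with no filter on low counts. Of the 107, 54 had passed the filter, and the 107 had 7 to 4475 UMIs (median 127). With the replicate block the number was 0 (140 at an unadjusted p under 0.05), so the block changed no call, and with each library left out it was 0 (lowest and highest both 0). With the block within the permutations, the cosine of the share explained 9.76% (permutation p = 0.5002). The cause of the differences between tools was not tested. Of the clock genes, Per1 alone passed the low-count filter in the main edgeR fit of 14 libraries. With the replicate block on 14 libraries 2 clock genes passed it, and 2 to 11 were fitted in some of the alternatives. With no filter 1 of 11, Nr1d2, was called and 4 had an unadjusted p under 0.05.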
